A study of Mus musculus with 12 samples.

Results

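The 12 libraries of this mouse cornea study fell into 2 classes by the RNA level of Dbp, a transcription factor whose RNA rises and falls with the circadian clock. Its count was divided by the library's total to give counts per 1 M counts (CPM). A library of 80 CPM or more was placed in the high class and one under 80 CPM in the low class, so the members were chosen by their measured Dbp level, 8 of the 12 as high and 4 as low. The low libraries were Control 3, Vehicle 1, Vehicle 2 and UCS 1. Control thus had 2 high libraries and 1 low, Vehicle 1 and 2, UCS 2 and 1, and UCPRP 3 and 0. The classes were compared with the 4 treatment groups as a term in the fit. The 3 UCPRP libraries were all high, so that group gave no difference between classes of its own.

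Each library was made from a pool of 6 whole corneas from 3 mice, with 3 pools per group, so a replicate is a pool of animals. Control corneas were uninjured. The corneas of Vehicle, UCS and UCPRP had all been injured with benzalkonium chloride (BAK), a preservative of eye drops, given as 5 µl of a 0.2% solution to each eye every day for 14 days. Vehicle corneas had the injury and no treatment. UCS and UCPRP corneas also had 5 µl of a 20% cord blood-derived biologic, named only by these abbreviations, 3 times a day for 10 days. Strain, age and sex of the mice and the hour at which each pool was harvested are among the details not given in the sources used here.

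In mammals the circadian clock is a feedback loop of transcription that runs in nearly every cell, and the cornea is one of the tissues in which it is known to run. CLOCK or its relative NPAS2 pairs with BMAL1, the product of Arntl, and binds E-box sequences to switch on the Per and Cry genes, Nr1d1, Nr1d2, Dbp and Tef. The PER and CRY proteins then block that pair, the REV-ERB proteins made from Nr1d1 and Nr1d2 repress Arntl, Npas2 and Nfil3 through ROR elements, and DBP, TEF and HLF compete with the repressor NFIL3 at D-box sequences. Arntl and Npas2 RNA therefore run opposite to Nr1d1 and Dbp RNA through the day.

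Library totals ran from 18.55 to 20.44 M estimated counts, and 17440 to 17890 genes were detected in each. A gene with 0 counts may have had up to 3, or 0.147 to 0.162 CPM, by counting error alone. Krt12, the keratin of corneal epithelium, ran from 16100 to 27100 CPM in the Control libraries and from 3.34 to 185 CPM in the 9 injured ones. Pax6, a transcription factor of the eye, ran from 581 to 655 CPM in Control and from 406 to 574 CPM in the injured libraries. Retina and lens RNA was also present in every library: the retina marker list summed to 3560 to 19300 CPM, and Cryaa, a lens crystallin, ran from 13.5 to 15200 CPM. In bulk RNA of this kind, fewer cells of a type and less RNA per cell cannot be told apart.

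The Dbp level that set the classes was 22.3 CPM in Control 3, 14.6 in Vehicle 1, 27.6 in Vehicle 2 and 23.9 in UCS 1. In the 8 high libraries it ran from 143 to 243 CPM with a median of 185. The libraries nearest the threshold were Vehicle 2 below it, at 27.6 CPM, and UCPRP 3 above it, at 143 CPM, with none in between. Since Dbp chose the libraries, its difference is no finding and was not tested.

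Arntl and Nr1d1, the other phase markers, divided the libraries at the same place and are likewise described without a test. Arntl, which encodes the activator BMAL1, was at 67.4 CPM in Control 3, 38.9 in Vehicle 1, 50.9 in Vehicle 2 and 44.5 in UCS 1. It ran from 9.09 to 24.8 CPM, with a median of 21.1, in the high libraries. All 4 low-Dbp libraries thus had more Arntl than any high-Dbp library. Nr1d1, which encodes the repressor REV-ERB alpha, was at 66.7 CPM in Control 3, 40.4 in Vehicle 1, 65.7 in Vehicle 2 and 90.6 in UCS 1, against 156 to 334 CPM with a median of 178 in the high libraries. The classes did not overlap for it either, and Control 1 and Control 2 were its highest libraries at 334 and 295 CPM. The log2 difference, high minus low, was -1.72 within Control, -1.15 within Vehicle and -1.36 within UCS for Arntl, and 2.38, 1.76 and 0.89 for Nr1d1. The levels of the markers and of the 9 clock genes that passed the test are plotted by library.

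**Figure D1:**
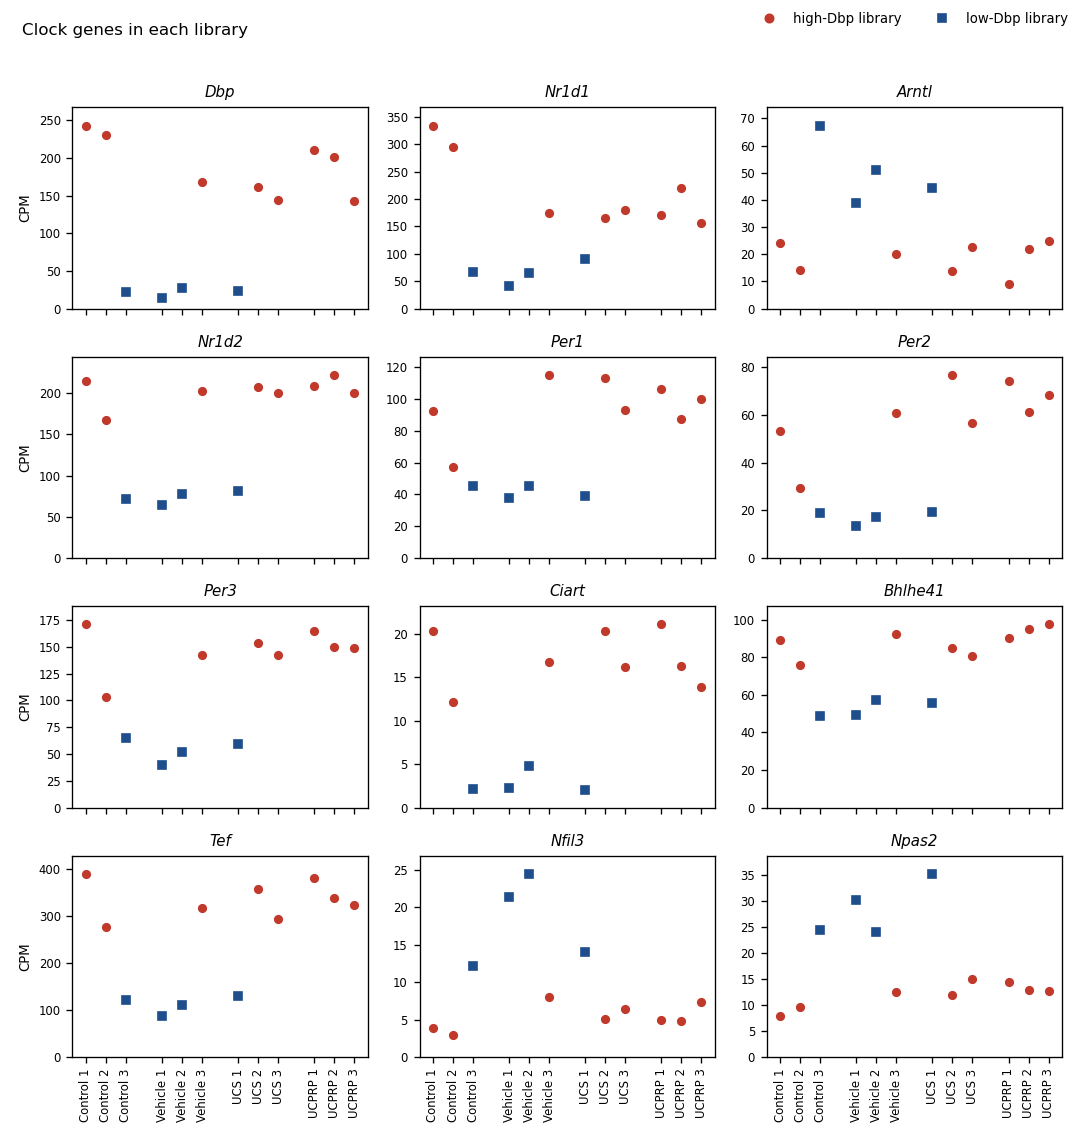
CPM (linear axis from 0) of Dbp, Nr1d1, Arntl and 9 further clock genes in each of the 12 libraries, ordered by group on the x axis; red circles are the 8 high-Dbp and blue squares the 4 low-Dbp libraries, 1 point per library with no error bar. Control 3, Vehicle 1, Vehicle 2 and UCS 1 stand apart from the other 8 in every panel, above them for Arntl, Nfil3 and Npas2 and below them for the others.

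Clock genes were 9 of the 12 genes called for the class. Of 16121 genes tested with edgeR's quasi-likelihood test, 12 (0.0744%) passed a Benjamini-Hochberg adjusted p of 0.05, of which 7 (0.0434%) were higher and 5 (0.031%) lower in the high libraries. The 3 clock lists used here hold 21 genes, all measured and all past the filter on low counts. With the 3 markers left aside, 18 were tested. Of these, 9 passed, all 7 of the genes called higher (Nr1d2, Tef, Per1, Per2, Per3, Ciart and Bhlhe41) and 2 of the 5 called lower (Npas2 and Nfil3). The median absolute log2 difference was 0.77 over the 18 clock genes and 0.10 over all genes tested. High and low libraries were separated in one direction within each of Control, Vehicle and UCS for 14 of the 18, against 7.08% of all genes. Of these 9 were higher (background 3.43%) and 5 lower (3.65%). Over all 12 libraries 10 were separated, against 0.856% of all genes, 8 higher (background 0.453%) and 2 lower (0.403%), so most of the 138 genes separated in this way were not in the clock lists. DESeq2 on the same counts called 40 genes higher and 32 lower, 12 of them clock genes.

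The number of calls depended on single low or high libraries. It fell from 9 clock genes to 3 without Vehicle 3, the only high library of its group, to 5 without Control 3 and to 6 without UCS 1, the only low libraries of theirs. The low libraries also had more RNA of mitotic genes in Control and Vehicle, as given with those genes, and with the mean of that list as a further term 1 gene, Nr1d2, was called. In every alternative fit the 12 genes kept their direction. The fitted and within-group differences of the clock genes are plotted side by side.

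**Figure D2:**
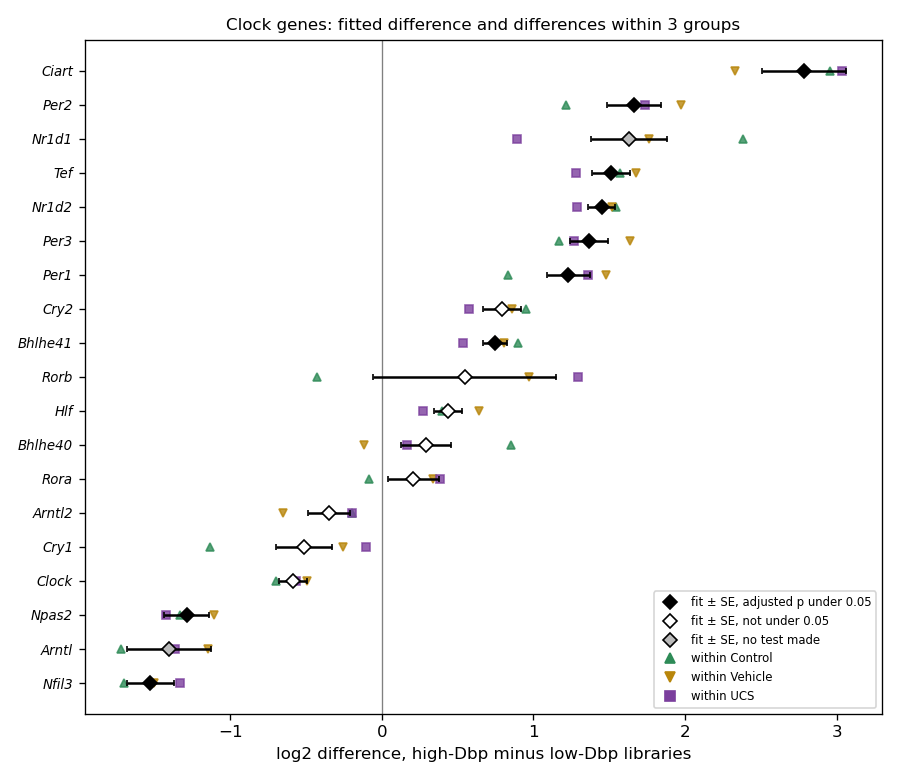
Log2 difference, high minus low, of 19 clock genes (x axis; genes on the y axis), with Dbp, which set the classes, not drawn: diamonds are the fit over 12 libraries with the SE as bars, black where the adjusted p was under 0.05, white where it was not and grey for the untested markers; triangles and squares are the differences within Control, Vehicle and UCS. Of the genes drawn, Ciart lies farthest to the right at 2.78 and Nfil3 farthest to the left at -1.52, and the 9 called genes have all 3 within-group differences on one side of 0.

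Promoters of 6 of the called clock genes are shown because they carry the binding sequences named above. They were read from RefSeq (GRCm38.p6), which gave a promoter for 9 of the 12 called genes, all but Per2, Ikzf4 and Dtx4. The search covered the 250 bases before each RefSeq start on both strands, for the E-box CACGTG, the ROR element TAGGTCA and 2 forms of the D-box, TTATGTAA and TTACGTAA. None of these strings contains another. Over 32851 promoters an E-box was found in 6.02%, a D-box in 0.931% and a ROR element in 2.23%. Ciart held 3 E-boxes, Tef, Per1 and Bhlhe41 held 1 each in the stretch shown, Per3 held 2 D-boxes and Nfil3 held 1 ROR element, which reads TGACCTA on the strand of the gene. None of these motifs was in the windows of Nr1d2, Npas2 and Acaca, nor in those of the markers Dbp, Arntl and Nr1d1, which were also searched. The stretches of Ciart, Bhlhe41 and Per3 lie before the gene. Those of Tef and Per1 lie before a start inside the annotated gene, between GENCODE exons, and the 30 bases of Nfil3 lie in an untranslated GENCODE exon of the gene. They are chr3:95882258-95882478 (minus strand) for Ciart, chr15:81811164-81811413 (plus) for Tef, chr11:69098699-69098947 (plus) for Per1, chr6:145865559-145865670 (minus) for Bhlhe41, chr4:151044708-151044915 (minus) for Per3 and chr13:52981040-52981069 (minus) for Nfil3. Each is written 5′ to 3′ on the strand of its gene, with the motif in capitals. A match is a string of letters and does not show that a factor was bound in these corneas.
Ciart: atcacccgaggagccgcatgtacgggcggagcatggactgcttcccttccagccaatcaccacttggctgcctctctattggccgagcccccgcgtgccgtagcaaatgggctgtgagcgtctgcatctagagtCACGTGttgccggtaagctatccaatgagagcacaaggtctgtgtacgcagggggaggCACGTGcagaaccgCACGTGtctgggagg
Tef: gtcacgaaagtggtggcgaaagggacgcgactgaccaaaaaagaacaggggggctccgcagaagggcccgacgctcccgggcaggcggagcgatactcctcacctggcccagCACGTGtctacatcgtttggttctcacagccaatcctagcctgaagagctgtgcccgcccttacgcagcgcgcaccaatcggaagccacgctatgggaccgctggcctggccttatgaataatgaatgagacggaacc
Per1: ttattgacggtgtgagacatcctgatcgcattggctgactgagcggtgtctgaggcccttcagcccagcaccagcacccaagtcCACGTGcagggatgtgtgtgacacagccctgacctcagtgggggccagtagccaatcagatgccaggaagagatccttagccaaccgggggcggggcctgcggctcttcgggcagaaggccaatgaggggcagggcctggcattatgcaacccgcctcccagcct
Bhlhe41: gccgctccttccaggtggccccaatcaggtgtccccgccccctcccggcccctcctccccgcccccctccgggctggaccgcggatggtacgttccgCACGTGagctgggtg
Per3: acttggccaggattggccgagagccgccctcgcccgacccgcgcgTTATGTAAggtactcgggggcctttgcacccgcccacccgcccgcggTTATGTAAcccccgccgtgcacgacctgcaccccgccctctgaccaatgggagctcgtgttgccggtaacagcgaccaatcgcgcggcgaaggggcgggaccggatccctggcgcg
Nfil3: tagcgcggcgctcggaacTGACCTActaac

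In the repressing arm of the loop, 6 of 9 tested genes rose in the high libraries and none fell. Nr1d2 (Entrez 353187, chr14:18204056-18239106), which encodes REV-ERB beta, was at 71.7 CPM in Control 3, 64.8 in Vehicle 1, 77.7 in Vehicle 2 and 81.3 in UCS 1, against 167 to 222 CPM with a median of 205 in the high libraries. In CPM, which are not scaled between libraries, the lowest high library was Control 2. Its scaling factor (TMM) of 0.825 was the lowest of all libraries, so this rank does not hold on scaled values. The classes did not overlap. The log2 difference was 1.45 (SE 0.087, adjusted p = 0.0001665), and it was 1.55 within Control, 1.52 within Vehicle and 1.29 within UCS. Nr1d2 had the lowest p of all genes tested and was the only gene called under every alternative fit, with an adjusted p of at most 0.0125.

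The 3 Per genes, whose products carry the negative feedback, rose together. Per1 (Entrez 18626, chr11:69095108-69109965) was at 45 CPM in Control 3, 37.7 in Vehicle 1, 45.1 in Vehicle 2 and 39 in UCS 1, and ran from 56.9 to 115 CPM with a median of 96.7 in the high libraries. Per2 (Entrez 18627, chr1:91415977-91459351) was at 18.8, 13.5, 17.4 and 19.2 CPM in the same 4 low libraries and ran from 29.4 to 76.7 CPM with a median of 61 in the high ones. Per3 (Entrez 18628, chr4:150997018-151044707) was at 65, 39.4, 52.3 and 59.7 CPM in the low libraries and ran from 103 to 171 CPM with a median of 150 in the high ones. For each of the 3 genes the classes did not overlap, and the lowest high library was Control 2, at 56.9, 29.4 and 103 CPM. The log2 differences were 1.23 for Per1 (SE 0.143, adjusted p = 0.00984), 1.66 for Per2 (SE 0.177, adjusted p = 0.00685) and 1.37 for Per3 (SE 0.128, adjusted p = 0.00393). Within Control they were 0.83, 1.21 and 1.17, and within Vehicle 1.48, 1.98 and 1.64. Without Vehicle 3 the adjusted p was 0.164 for Per1, 0.102 for Per2 and 0.0507 for Per3, and without UCS 1 it was 0.121 for Per1 and 0.062 for Per2. With plain CPM in place of scaled counts the adjusted p of Per1 was 0.0627.

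Ciart (Entrez 229599, chr3:95878500-95882257), which encodes the transcriptional repressor CHRONO, had the largest difference of the tested clock genes. It was at 2.16 CPM in Control 3, 2.21 in Vehicle 1, 4.79 in Vehicle 2 and 2.06 in UCS 1, which are 41, 43, 92 and 39 counts. In the high libraries it ran from 12.2 to 21.1 CPM with a median of 16.5. The classes did not overlap, and Vehicle 2 was above the other 3 low libraries. The log2 difference was 2.78 (SE 0.276, adjusted p = 0.00524), with 2.95 within Control, 2.33 within Vehicle and 3.04 within UCS. Without Control 3 the adjusted p was 0.0597.

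Bhlhe41 (Entrez 79362, chr6:145858243-145865420), which encodes the E-box repressor DEC2, rose by less. It was at 48.7, 49.2, 57.1 and 55.6 CPM in Control 3, Vehicle 1, Vehicle 2 and UCS 1, and ran from 75.7 to 97.6 CPM with a median of 89.8 in the high libraries. No high library overlapped the low ones. Its log2 difference was 0.75 (SE 0.081, adjusted p = 0.00702). It was 0.90 within Control, 0.81 within Vehicle and 0.54 within UCS, and the adjusted p was 0.109 without Control 3 and 0.102 without Vehicle 3. Its relative Bhlhe40, which encodes DEC1, had a log2 difference of 0.29 (adjusted p = 0.999), with -0.12 within Vehicle and 0.85 within Control.

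The Cry genes, which encode the partners of the PER proteins, did not pass the test. Cry2 was at 32.7, 23.9, 37 and 31.2 CPM in Control 3, Vehicle 1, Vehicle 2 and UCS 1 and ran from 46.7 to 70 CPM with a median of 52.8 in the high libraries. There was no overlap, and the log2 difference was 0.79 (SE 0.127, adjusted p = 0.0786). Cry1 was at 31.6, 18.8, 22 and 18.4 CPM in the low libraries and ran from 12 to 22.8 CPM in the high ones. It overlapped between classes, and its log2 difference of -0.51 (adjusted p = 0.866) was made up of -1.13 within Control, -0.25 within Vehicle and -0.10 within UCS.

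In the activating arm, 1 of 6 tested genes fell and none rose. Npas2 (Entrez 18143, chr1:39193702-39363240), which encodes a partner of BMAL1 that can stand in for CLOCK, was at 24.4 CPM in Control 3, 30.1 in Vehicle 1, 24.1 in Vehicle 2 and 35.2 in UCS 1. In the high libraries it ran from 7.95 to 15 CPM with a median of 12.5, and the classes did not overlap. The log2 difference was -1.29 (SE 0.147, adjusted p = 0.0092), with -1.33 within Control, -1.10 within Vehicle and -1.42 within UCS. The adjusted p was 0.157 without Control 3, 0.0529 without Vehicle 3 and 0.121 without UCS 1.

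Clock itself had a smaller difference in the same direction. It was at 186, 153, 130 and 169 CPM in Control 3, Vehicle 1, Vehicle 2 and UCS 1 and ran from 90.1 to 126 CPM with a median of 105 in the high libraries. The classes did not overlap in plain CPM and did on the scaled counts, and the log2 difference was -0.59 (SE 0.093, adjusted p = 0.0786). Without Vehicle 2 the adjusted p was 0.0423. Arntl2, a relative of Arntl, had a log2 difference of -0.35 (adjusted p = 0.962). Among the genes of the ROR activators, the difference was 0.21 for Rora and 0.55 for Rorb (both adjusted p = 0.999), and both differed in sign between groups. Rorb RNA is also made in retina, and its level ran from 11.1 to 89.8 CPM over libraries whose summed retina markers ran from 3560 to 19300 CPM. The part of retina RNA in the Rorb values was not tested.

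Of the D-box factors other than Dbp, 1 rose, 1 fell and 1 did not pass. Tef (Entrez 21685, chr15:81802673-81826863), which encodes an activator of the same family as DBP, was at 122 CPM in Control 3, 88 in Vehicle 1, 111 in Vehicle 2 and 130 in UCS 1. In the high libraries it ran from 276 to 389 CPM with a median of 330, so every high library was above every low one. This gave a log2 difference of 1.51 (SE 0.125, adjusted p = 0.00182), with 1.57 within Control, 1.68 within Vehicle and 1.28 within UCS. Leaving out any 1 library did not end this call, and the highest adjusted p was 0.0371.

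Nfil3 (Entrez 18030, chr13:52967209-52982878), which encodes the repressor E4BP4 that binds the same D-boxes, went the other way. It was at 12.2 CPM in Control 3, 21.4 in Vehicle 1, 24.5 in Vehicle 2 and 14.1 in UCS 1, against 2.89 to 8.04 CPM with a median of 5.03 in the high libraries. Vehicle 3 was the highest of the high libraries, still under all 4 low ones. This gave a log2 difference of -1.52 (SE 0.156, adjusted p = 0.0056), and the differences within the 3 groups ran from -1.70 in Control to -1.33 in UCS. The adjusted p was 0.109 without Control 3 and 0.0529 without Vehicle 3. Hlf, the third activator of the family, was at 217, 82.6, 89.2 and 117 CPM in the low libraries and ran from 134 to 270 CPM with a median of 148 in the high ones. It overlapped between classes, its 3 highest libraries being those of Control, and within groups it was higher in the high libraries by 0.40 in Control, 0.64 in Vehicle and 0.27 in UCS (log2). The fitted log2 difference was 0.44 (SE 0.092, adjusted p = 0.269).

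The class difference was also compared between groups. No gene of 16124 (0%) passed edgeR's test of a class difference that changed between Control, Vehicle and UCS, and 526 had an unadjusted p under 0.05. With limma-voom these counts were 0 and 457. Each group held 1 library of one of its classes, so this test had little to work with, and it does not show that the differences were alike. The clock genes with the widest range between groups were Nr1d1, from 0.89 in UCS to 2.38 in Control, and Rorb, from -0.43 in Control to 1.30 in UCS.

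Beyond the clock, 3 genes passed the test, and all 3 fell in the high libraries. Ikzf4 (Entrez 22781, chr10:128630839-128669671), which encodes the zinc finger factor Eos, was at 30 CPM in Control 3, 20.4 in Vehicle 1, 19.6 in Vehicle 2 and 25.2 in UCS 1, against 11.7 to 15.4 CPM with a median of 12.7 in the high libraries. Dtx4 (Entrez 207521, chr19:12466329-12502179), a ubiquitin ligase gene also in the list of clock outputs, was at 37.7, 37.7, 38.7 and 43.1 CPM in the same low libraries and ran from 16.4 to 28.4 CPM with a median of 22.8 in the high ones. Acaca (Entrez 107476, chr11:84129635-84401651), which encodes acetyl-CoA carboxylase, the first committed enzyme of fatty acid synthesis, was at 126, 125, 127 and 114 CPM in the low libraries and ran from 67.2 to 91.5 CPM with a median of 76.9 in the high ones. The classes did not overlap for any of the 3. The log2 differences were -0.89 for Ikzf4 (SE 0.113, adjusted p = 0.0174), -0.81 for Dtx4 (SE 0.103, adjusted p = 0.0174) and -0.59 for Acaca (SE 0.081, adjusted p = 0.0313). These calls were less stable than those of the clock genes. Of the 12 fits that each left out 1 library, 5 called Ikzf4, 5 called Dtx4 and 1 called Acaca, the fit without UCS 3. The highest adjusted p was 0.306 for Ikzf4 and 0.291 for Dtx4, both without Control 3, and 0.313 for Acaca, without Vehicle 3. Ikzf4 was not called without Control 1, Control 2, Control 3, Vehicle 1, UCS 1, UCS 2 or UCS 3, and Dtx4 without Control 1, Control 2, Control 3, Vehicle 1, Vehicle 3, UCS 1 or UCS 2. These 3 genes and 6 others are plotted by library.

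**Figure D3:**
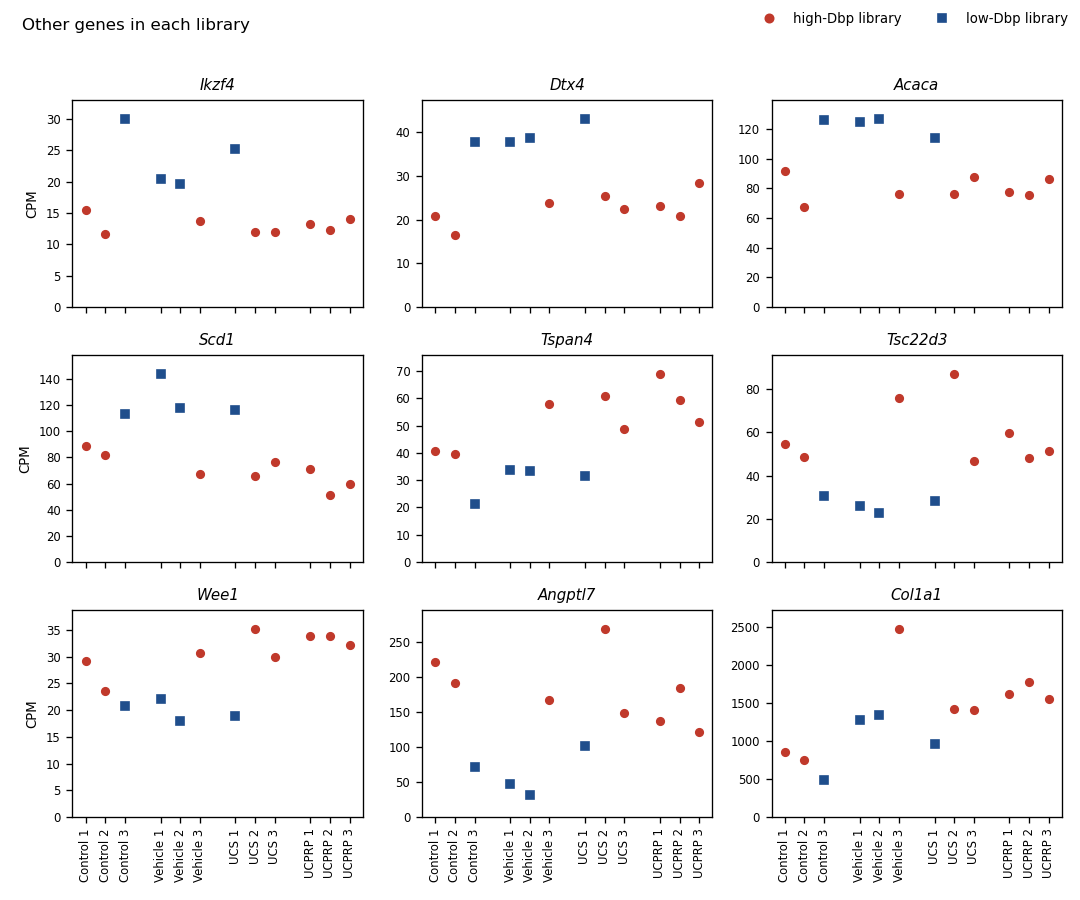
CPM (linear axis from 0) of Ikzf4, Dtx4, Acaca, Scd1, Tspan4, Tsc22d3, Wee1, Angptl7 and Col1a1 in each of the 12 libraries, ordered by group; red circles are high-Dbp and blue squares low-Dbp libraries, 1 point per library with no error bar. Only the top row passed the test; the 4 low libraries lie above the other 8 for Ikzf4, Dtx4, Acaca and Scd1 and below them for Tspan4, Tsc22d3, Wee1 and Angptl7, while Col1a1 overlaps between classes.

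Of 46 tested genes known as clock outputs in other tissues, 1 rose (Ciart) and 1 fell (Dtx4), both counted already. The median log2 difference of this list was 0.21, against 0.02 for all genes. Of the 46 values 31 were above 0, against 8912 of all 16121 genes tested. An unadjusted p under 0.05 was found for 21 of the 46, 18 higher and 3 lower, against 4.8% of all genes tested. The following examples were chosen after their values were seen. Tspan4, a tetraspanin gene, ran from 21.4 to 33.9 CPM in the low libraries and from 39.7 to 69 CPM in the high ones, with a log2 difference of 0.86 (adjusted p = 0.0565). Wee1, the kinase that holds cells before mitosis and a known target of the clock, ran from 17.9 to 22.1 CPM and from 23.6 to 35.2 CPM, with a difference of 0.62 (adjusted p = 0.0953). Tsc22d3, which encodes the glucocorticoid-induced protein GILZ, ran from 22.5 to 30.5 CPM and from 46.7 to 87.2 CPM, with a difference of 1.26 (adjusted p = 0.0786). None of these 3 passed the test, and none overlapped between classes. Usp2, a deubiquitinase gene, had a difference of 0.81 (adjusted p = 0.4) and overlapped between classes.

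The list of glucocorticoid response genes shares members with the clock lists, and glucocorticoid hormone itself is known to follow the day. Of 21 tested members, 1 rose, Per1, and none fell. The median log2 difference was 0.30. An unadjusted p under 0.05 was found for 8 of the 21, against 4.8% of all genes tested. All 8 were higher in the high libraries, and all 8 were also in a clock or clock output list, as were 9 of the 21. Of the members in neither, picked here after their values were seen, Dusp1, a phosphatase gene, had a difference of 0.31 and Mt2, a metallothionein gene, of -0.07 (both adjusted p = 0.999). None of 15 genes of kinases, ubiquitin ligases and other cofactors of clock proteins passed. Their median was 0.00 and their values lay between -0.10 and 0.16.

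Among genes of fatty acid handling, 1 of 27 fell (Acaca) and none rose, and the median was 0.02. Of the others, 3 synthesis genes chosen after their values were seen were lower in the high libraries within Control, Vehicle and UCS without passing the test. Scd1, a stearoyl-CoA desaturase gene, was at 113 CPM in Control 3, 144 in Vehicle 1, 118 in Vehicle 2 and 116 in UCS 1, against 51.3 to 88.7 CPM in the high libraries, with a log2 difference of -0.66 (adjusted p = 0.414). Scd2 and the elongase gene Elovl6 had differences of -0.48 (adjusted p = 0.827) and -0.31 (adjusted p = 0.803). Fasn, the fatty acid synthase gene, also chosen after its value was seen, had a difference of -0.19 (adjusted p = 0.999). None of 24 cholesterol synthesis genes passed. Their median was -0.18, and 23 of the 24 values were below 0, against 7209 of all 16121 genes tested. None of the 24 had an unadjusted p under 0.05, against 4.8% of all genes tested. The median of this list was -0.01 within Control, -0.32 within Vehicle and -0.18 within UCS.

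The mitotic genes had lower values in the high libraries in 2 of the groups. None of 30 tested G2/M genes passed. All 30 log2 differences, with a median of -0.61, were below 0, against 7209 of all 16121 genes tested. Of the 30, 17 had an unadjusted p under 0.05, against 4.8% of all genes tested. The median was -0.72 within Control, -1.23 within Vehicle and 0.04 within UCS. Mki67, a marker of cycling cells, was at 144 CPM in Control 3, 157 in Vehicle 1, 134 in Vehicle 2 and 81.1 in UCS 1, and ran from 45.8 to 109 CPM in the high libraries, with a difference of -0.80 (adjusted p = 0.913). The 30 genes summed to 1090, 1230, 1180 and 670 CPM in these low libraries and to between 465 and 925 CPM in the high ones. UCS 1 lay within the high range and UCS 3, a high library, was above it. Of 29 genes of G1/S and DNA replication none passed. Their median was 0.03 over the fit, 0.28 within Control, -0.56 within Vehicle and 0.29 within UCS.

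Since the G2/M list moved with the classes, it was entered as a further term. Nr1d2 was then the 1 gene called, with a difference of 1.37 (adjusted p = 0.0125), and the other 11 had an adjusted p from 0.0642, for Tef, Ikzf4 and Dtx4, to 0.59, for Acaca. Their differences in that fit were 1.34 for Tef, 1.20 for Per3, 2.90 for Ciart, 1.42 for Per2, 1.08 for Per1, 0.64 for Bhlhe41, -1.53 for Nfil3 and -1.22 for Npas2. Within Control and Vehicle the G2/M list moved with the class, so class and mitotic RNA cannot be told apart there. The part of mitotic RNA in the UCS differences was not tested. Within UCS, where the G2/M median was 0.04, the differences rest on 1 low library, UCS 1. They were 3.04 for Ciart, 1.74 for Per2, 1.36 for Per1, 1.29 for Nr1d2, 1.28 for Tef, 1.27 for Per3, 0.54 for Bhlhe41, -1.33 for Nfil3 and -1.42 for Npas2.

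Other tissues in the cornea samples were followed through lists of their markers, and none had a member that passed. Of 16 genes of keratocytes and stroma, 14 values were above 0, against 8912 of all 16121 genes tested, and the median was 0.38. Of the 16, 7 had an unadjusted p under 0.05, against 4.8% of all genes tested, and all 7 were higher in the high libraries. Angptl7, a secreted protein gene of the corneal stroma, was at 70.9 CPM in Control 3, 46.9 in Vehicle 1, 30.8 in Vehicle 2 and 102 in UCS 1, against 122 to 269 CPM with a median of 176 in the high libraries (log2 difference 1.59, adjusted p = 0.0941). Col1a1, a collagen gene, was at 487, 1280, 1340 and 967 CPM in the low libraries and ran from 753 to 2480 CPM in the high ones (0.77, adjusted p = 0.0821). Both were chosen after their values were seen. Angptl7 did not overlap between classes, and Col1a1 did, although it was higher in the high libraries within each of the 3 groups. The list summed to 7260 to 10500 CPM in the low and 8040 to 15200 CPM in the high libraries. Kera, the keratocyte proteoglycan, had differences of 0.75 within Control, 0.61 within Vehicle and -0.40 within UCS. The part of stromal RNA in the clock results was not tested.

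The amounts of tissue next to the cornea varied widely and overlapped between classes. The 22 skeletal muscle genes had a median of 0.97 and all had values above 0, against 8912 of all 16121 genes tested. They summed to 278 to 1430 CPM in the low and 183 to 2850 CPM in the high libraries. Their median was 0.25 within Control, 1.84 within Vehicle and -0.59 within UCS. With that list as a further term the 9 clock genes were still called, and the genes called lower fell from 5 to 2, the lost calls being Ikzf4, Dtx4 and Acaca. The 25 retina genes summed to 3560 to 16000 CPM in the low and 3980 to 19300 CPM in the high libraries, with a median difference of 0.22. The 21 lens genes summed to 291 to 17200 and 229 to 34600 CPM, with medians of -2.41 within Control, -2.41 within Vehicle and 3.95 within UCS. Neutrophil genes summed to 130 to 1500 CPM in the low and 39 to 1030 CPM in the high libraries, with a median of -0.43 over 11 tested genes that was -0.37 within Control, -2.43 within Vehicle and 1.30 within UCS. Their defining gene S100a8 was under 1 CPM in the 3 Control libraries, at 48.5 and 58.9 CPM in the low Vehicle libraries and at 6.52 CPM in Vehicle 3. In UCS it went the other way, at 1.16 CPM in UCS 1, 3.34 in UCS 2 and 10.5 in UCS 3. Ltf, another neutrophil gene, was at 962 CPM in Vehicle 1, 896 in Vehicle 2 and 702 in Vehicle 3. The part of neutrophil RNA in the clock results was not tested. The plot of gene lists by library shows these sums.

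**Figure D4:**
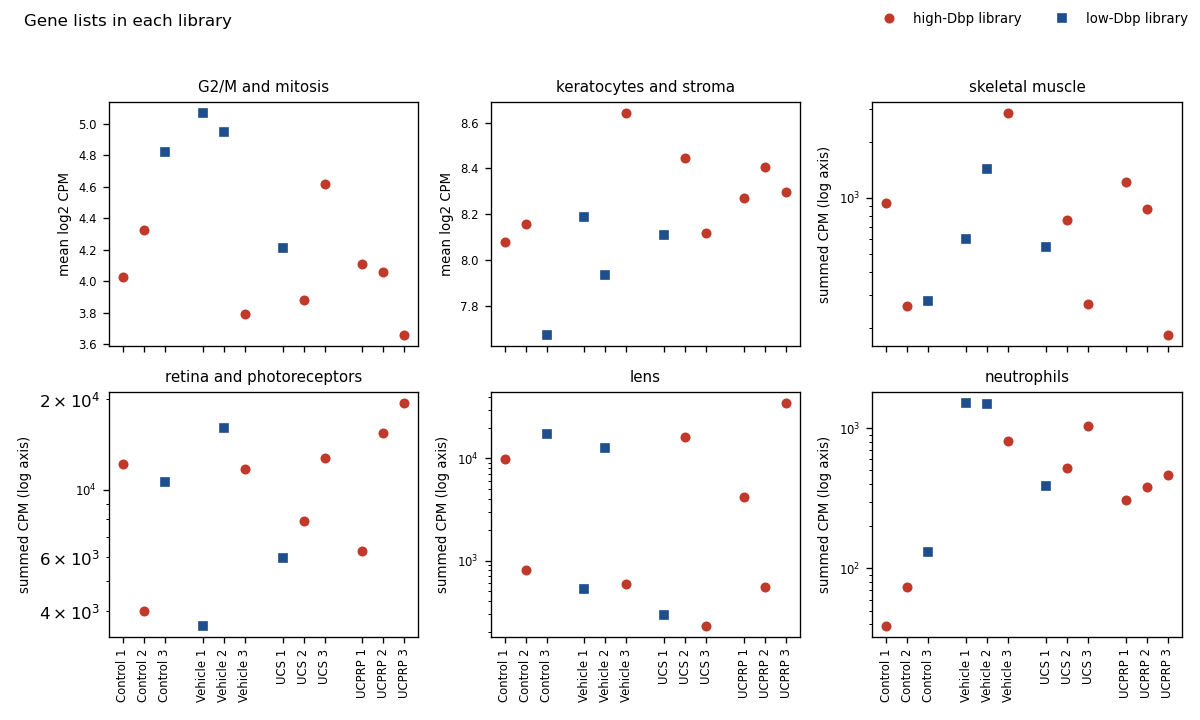
Gene lists in each of the 12 libraries, ordered by group: the mean log2 CPM of the tested members for G2/M and for keratocyte genes, and the summed CPM (log axes) for skeletal muscle, retina, lens and neutrophil genes; red circles are high-Dbp and blue squares low-Dbp libraries, 1 point per library. Control 3, Vehicle 1 and Vehicle 2 are the highest 3 for G2/M genes, and the classes overlap in all 6 panels.

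The remaining lists had no called member other than clock genes they share. Nfil3 is also in the list of NRF2 and redox genes, where it was the 1 of 20 that fell. Medians lay near the 0.02 of all genes for heat shock (-0.06 over 29 genes), immediate early genes (0.07 over 28), glycolysis (0.05 over 22), redox genes (-0.03), pigment cells (-0.02 over 14), conjunctiva (-0.08 over 14), glands (0.03 over 7, with 3 further members at 0 in every library), macrophages (0.11 over 17), lymphocytes (0.06 over 12), nerve (0.05 over 16) and sex-linked genes (0.04 over 4). They were 0.13 for 17 genes of corneal epithelium, 0.10 for 10 of the endothelium, 0.36 for 4 of fat cells, -0.37 for 7 of blood and -0.32 for 23 of leukocyte trafficking.

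The classes also entered the comparisons that the study was built for. With the class as a term, 2224 of 16124 genes (13.8%) differed between Vehicle and Control, 1348 higher (8.36%) and 876 lower (5.43%), against 2661 (16.5%) without it. Leaving out 1 library gave 1332 to 2138 genes, the fewest without Control 3 and, at 1479, without Vehicle 3. Of the 21 clock genes 1 was higher in Vehicle, Nfil3, and 1 was lower, Hlf. Nfil3 was at 3.84, 2.89 and 12.2 CPM in Control and at 21.4, 24.5 and 8.04 CPM in Vehicle. The groups overlapped, but within each class the Vehicle libraries were above the Control ones. The log2 difference was 1.02 (SE 0.189, adjusted p = 0.00547), and without the class term it was 1.44 (adjusted p = 0.113). Hlf was at 270, 248 and 217 CPM in Control and at 82.6, 89.2 and 134 CPM in Vehicle, with no overlap. Its log2 difference was -1.26 (SE 0.112, adjusted p = 0.000203), and without the class term -1.39 (adjusted p = 0.000537).

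No gene (0%) was called between UCS and Vehicle or between UCPRP and Vehicle, with the class as a term or without it. Leaving out Vehicle 3 gave 8 genes between UCPRP and Vehicle, none of them a clock gene, and leaving out any other library gave none. In edgeR's test 637 and 745 of 16124 genes had an unadjusted p under 0.05 with the term. The class term moved the clock genes most in the UCPRP comparison, whose 3 libraries were all high against 1 of 3 in Vehicle. There the log2 difference of Per2 was 0.39 with the term and 1.18 without it, that of Tef 0.27 and 1.05, that of Nr1d2 0.12 and 0.90, and that of Ciart -0.28 and 1.14. That of Nfil3 was -0.46 with the term and -1.63 without it, and for Npas2 the values were 0.23 and -0.72. None of these passed the test, and both comparisons share the Vehicle libraries. Dbp, itself a clock gene, set the class, and UCPRP had no low library. A UCPRP difference in the clock genes and a class difference therefore cannot be told apart here.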

How the data were processed

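RNA-seq of 12 mouse cornea pools (4 groups of 3) was used. The authors deposited an estimated count for each gene in each library, called a read count per the file headers, and 64.9% of the values were whole. Per the labels' protocols RNA was extracted with an RNeasy kit and libraries made with TruSeq Stranded Total RNA. The submitters' processing notes name HISAT and GRCm38 without version. How reads were counted, with which annotation and strand setting, is among the details not given in the sources used here. Genes that overlap on opposite strands or have near copies are uncertain.

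Counts were rounded to whole numbers, filtered with filterByExpr (minimum count 10, by group), scaled with TMM and fitted with the robust quasi-likelihood test of edgeR 4.0.16 (R 4.3.3), taking group and Dbp class as terms. P-values were adjusted (Benjamini-Hochberg) over 16121 genes, the 16124 that passed the filter less the markers Dbp, Arntl and Nr1d1, and a gene was called under 0.05. CPM values are per library total. Fold changes are on the log2 scale, and a standard error (SE) was derived from edgeR's F statistic as its size over the root of F. The biological coefficient of variation over all genes was 0.232 and the median SE of the class difference 0.148. Within-group differences are of log2 CPM (prior count 2), with no test. Libraries of a group differed by at least 16 times the variance of counting error, so none was the same library read again. This value cannot tell whether 2 libraries came from the same pool. The labels give separate pools per group, and p-values measure the spread between pools.

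The classes, the members and the 31 gene lists (574 symbols, of which 567 matched by symbol, 2 by synonym and 5 not) were chosen with earlier results of these data known. Genes named were all tested clock list members, the 12 largest changes each way among other called genes (mean of at least 5 CPM, no overlap within 3 groups), and up to 4 called members, or the most abundant one, of each other list; the text says where a gene was chosen otherwise, and some named by the rule are not reported here. Of 19702 genes 19644 matched RefSeq GRCm38.p6, which gave coordinates and promoters. DESeq2 1.42.0, limma-voom 3.58.1, other scalings, no filter, Dbp as a continuous term, marker lists as covariates, a replicate block and fits without each library were the alternatives. The script was tested on simulated data.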

Additional observations from a re-analysis of the deposited data

Results flagged for a closer look

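The 21 clock genes were checked for a library that stood apart within its class, which made 42 groups of 4 or 8 libraries, and 2 were found. Chance alone marks about 1 in 20 such groups. Npas2 was at 7.95 CPM in Control 1, the lowest of the 8 high libraries, next to 9.54 CPM in Control 2 and 12 to 15 CPM in the other 6. These CPM are not scaled between libraries. The scaling factor (TMM) was 0.825 for Control 2 and 1.023 for Control 1, so scaled values place Control 2 nearer the other 6. Ciart was at 4.79 CPM in Vehicle 2, the highest of the 4 low libraries, against 2.06 to 2.21 CPM in the other 3.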

How the results depend on the processing

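The 12 genes kept their direction in all 26 alternative fits, and the counts were 7 higher, 5 lower and 9 clock genes as reported, and unchanged with DESeq2 size factors, limma-voom and no filter. DESeq2 called 40 higher and 32 lower, among them the 12 genes. Log2 Dbp as a continuous term gave 9 lower, and no group term 11 higher. With the retina list as a covariate 14 were higher and 11 lower, with the muscle list 2 lower, and with the G2/M list 1 higher, 0 lower and 1 clock gene. Leaving out each library gave 3 to 10 higher, 0 to 5 lower and 3 to 10 clock genes. In the comparison of Vehicle with Control 2 clock genes were called, 1 with no class term, and 2 to 3 without each library. Adding the 3 markers back to the adjustment, an alternative chosen after seeing the data, left 7 higher, 5 lower and 9 clock genes. The cause of these changes was not tested.

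Same-numbered libraries of different groups are not stated to be paired: 7 of 18 such pairs had deviations correlated over 0.1 (from -0.581 to 0.494), as did 14 of 36 pairs of different numbers. With a replicate block 4 genes were higher, 1 lower and 5 of the clock lists were called.

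With 7 residual degrees of freedom and 1 library in a class of each of 3 groups, the median SE was 0.148, which limits detection of small differences. The test of a class difference between groups was not run without Control 3, Vehicle 3 or UCS 1. The within-group differences were recomputed only with plain CPM and with no filter. Classes were set by RNA level and not by a recorded hour of harvest.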
